A study of Mus musculus with 16 samples.

Results

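The 7 genes followed here are active in the thymus while antigen receptor genes are assembled, or mark T cells that have left it recently. They are Dntt, Rag1, Rag2, Arpp21, Cd24a, Sox4 and Tox, taken by symbol from a table of 24421 mouse genes. Their RNA was measured in naive T cells from lymph nodes of C57BL/6 mice, 16 libraries in all. The cells were sorted as CD25-, CD62Lhi and CD44lo, and as CD8+ or CD4+. Within each lineage, the third of cells that stained brightest for CD5 (CD5hi) and the third that stained dimmest (CD5lo) were collected. This gave CD8 CD5hi, CD8 CD5lo, CD4 CD5hi and CD4 CD5lo groups of 4 biological replicates each. The labels name no transgene, knockout or drug. The sources used here do not give age, sex or the number of mice behind each replicate, so the p-values below measure the spread between these libraries. CD5 is a surface inhibitor of T cell receptor signalling whose level is set in the thymus by how strongly a receptor binds self ligands.

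In the thymus, the RAG1 and RAG2 proteins together form the recombinase that cuts receptor gene segments. Terminal deoxynucleotidyl transferase, the product of Dntt, adds untemplated bases to the cut ends before end-joining proteins seal them. Both activities are shut off as thymocytes mature, and cells that left the thymus recently are known to keep more of some thymocyte products than older naive cells. CD24, encoded by Cd24a, is one such surface product. Sox4 and Tox are DNA-binding high mobility group factors of developing T cells, and Tox is needed for the CD4 lineage to form. Arpp21 encodes a cyclic AMP-regulated phosphoprotein known from neurons and immature thymocytes.

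Library totals ran from 71447252 to 93418385 counts, with a median of 78528233. Of the 7 genes, 5 passed the filter on low counts and are among the 13554 genes tested. Rag1 and Rag2 did not pass. Levels below are CPM, a gene's counts scaled to the total of its library, changes are log2 ratios with their standard errors (SE), and a gene is called when edgeR's quasi-likelihood test gave a Benjamini-Hochberg adjusted p under 0.05 over all tested genes. The libraries carried the labelled lineage: Cd8a was at 1563 to 2140 CPM in CD8 libraries and at most 11.4 CPM in CD4 libraries, and Cd4 was at most 62.2 CPM in CD8 libraries and 971 to 1268 CPM in CD4 libraries. Cd5 averaged 498 CPM in CD8 CD5hi and 200 CPM in CD8 CD5lo cells, and 1386 CPM in CD4 CD5hi and 255 CPM in CD4 CD5lo cells. In 3 libraries the RNA of 16 B cell markers summed to far more than in the other 13, where it was at most 73.9 CPM. These were CD8 CD5hi replicate 4 with 1009 CPM, CD8 CD5lo replicate 3 with 621 CPM and CD4 CD5lo replicate 3 with 395 CPM. They are called the B-marker-rich libraries below, and results that rest on them are given with and without them. They also held the most Cd4 or Cd8a RNA of the other lineage. Cd4 was 62.2 CPM in CD8 CD5hi replicate 4 and 27.2 CPM in CD8 CD5lo replicate 3, and at most 2.51 CPM in other CD8 libraries. Cd8a was 11.4 CPM in CD4 CD5lo replicate 3 and at most 5.49 CPM in other CD4 libraries. Sums of 11 myeloid markers were 83.5, 71.7 and 59.8 CPM in these 3 libraries, the highest of their groups. Their name covers only part of the RNA that was higher in them.

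**Figure D1:**
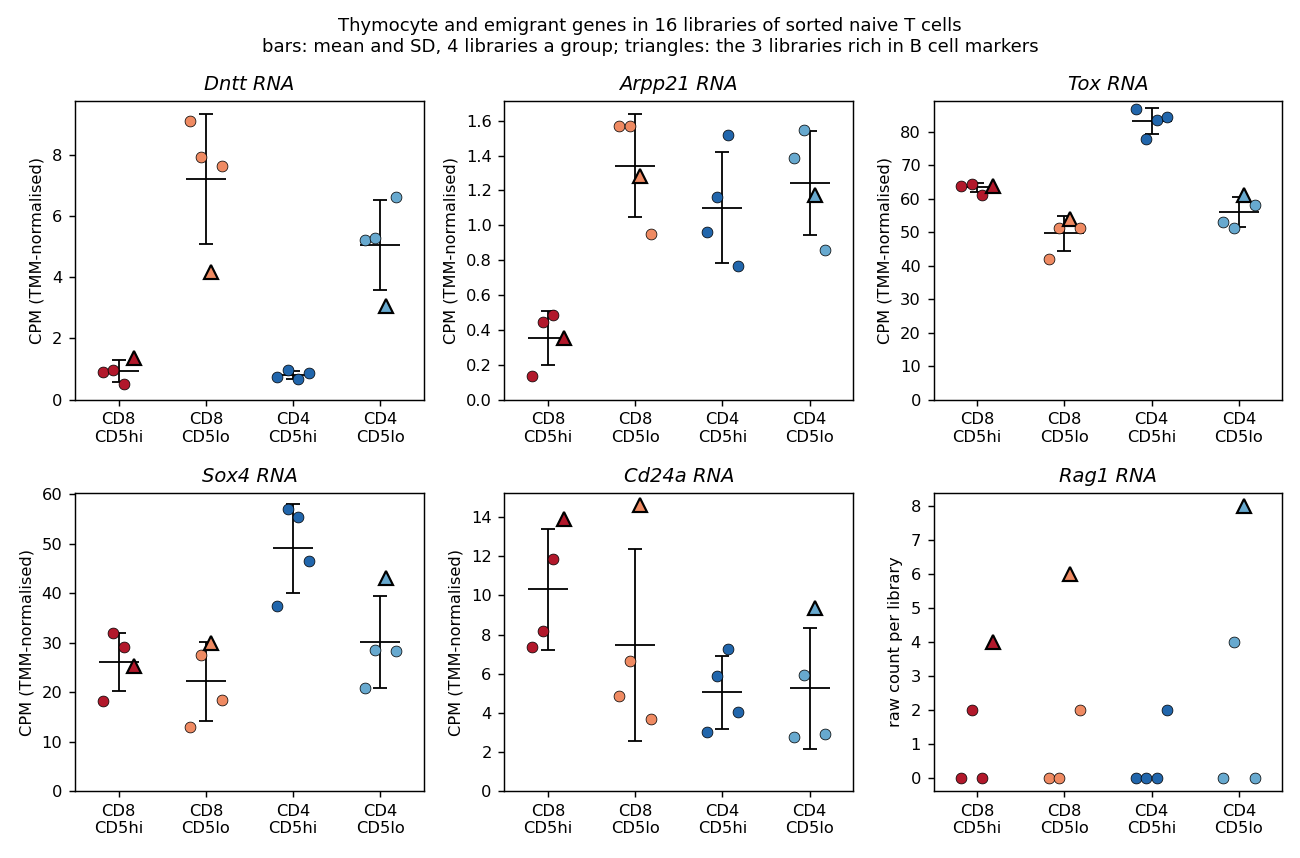
Level of 5 members in CPM and raw counts of Rag1 in every library, with CD8 CD5hi, CD8 CD5lo, CD4 CD5hi and CD4 CD5lo from left to right. Horizontal bars are means with SD over 4 libraries, and triangles are the 3 B-marker-rich libraries. Dntt was at most 1.37 CPM in CD5hi and at least 3.06 CPM in CD5lo libraries of either lineage, while Arpp21 stood apart in CD8 CD5hi alone.

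Dntt carried the largest change among the members that were tested, and it fell with high CD5 in both lineages. In CD8 CD5hi cells it measured 0.910, 0.954, 0.508 and 1.37 CPM, against 9.10, 7.91, 4.18 and 7.61 CPM in CD8 CD5lo cells (44 to 108 counts against 300 to 707 counts). Each CD5hi library lay below each CD5lo library, with a wide gap between the groups. Dntt averaged 0.936 ± 0.353 CPM in CD8 CD5hi and 7.20 ± 2.12 CPM in CD8 CD5lo cells (SD, n = 4 each). The log2 change was -2.94 ± 0.31 (95% confidence interval -3.61 to -2.28, edgeR adjusted p = 3.58e-05), a 7.69-fold lower level, and Dntt ranked 27 by p among all tested genes. With fewer cells of one kind or less RNA per cell the bulk value would be the same, and these cannot be told apart here.

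In CD4 cells the pattern was the same. CD4 CD5hi libraries held 0.731, 0.960, 0.668 and 0.855 CPM of Dntt, against 5.22, 5.28, 3.06 and 6.62 CPM in CD4 CD5lo libraries. Again the groups did not overlap, and the CD5hi values were the tighter set. The means were 0.803 ± 0.130 CPM in CD4 CD5hi and 5.05 ± 1.47 CPM in CD4 CD5lo cells (SD, n = 4 each), a 6.27-fold lower level (log2 change -2.65 ± 0.31, 95% confidence interval -3.31 to -1.99, edgeR adjusted p = 5.32e-05). The changes in the lineages differed by -0.30 ± 0.42, CD8 minus CD4 (95% confidence interval -1.18 to 0.59, edgeR adjusted p = 0.986), an interval that includes 0.

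Dntt ran from high to low in the order CD8 CD5lo, CD4 CD5lo, CD8 CD5hi and CD4 CD5hi. The middle pair, CD4 CD5lo and CD8 CD5hi, did not overlap in range. CD8 CD5lo exceeded CD4 CD5lo by 0.51 ± 0.29 (edgeR adjusted p = 0.264). That difference was called with the replicate number as a block (0.52 ± 0.15, adjusted p = 0.0174, with a range of 0.0174 to 0.515 over all alternatives). CD8 CD5hi differed from CD4 CD5hi by 0.22 ± 0.30 (edgeR adjusted p = 0.641). Replicate 3 held the lowest Dntt level of its group in 4 of 4 groups, as the plot by replicate number shows. In both CD5lo groups that library was a B-marker-rich one. Without the 3 B-marker-rich libraries Dntt fell by 3.36 ± 0.23 in CD8 and by 2.82 ± 0.21 in CD4 cells on the log2 scale. The fall was therefore at least as large without them.

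**Figure D2:**
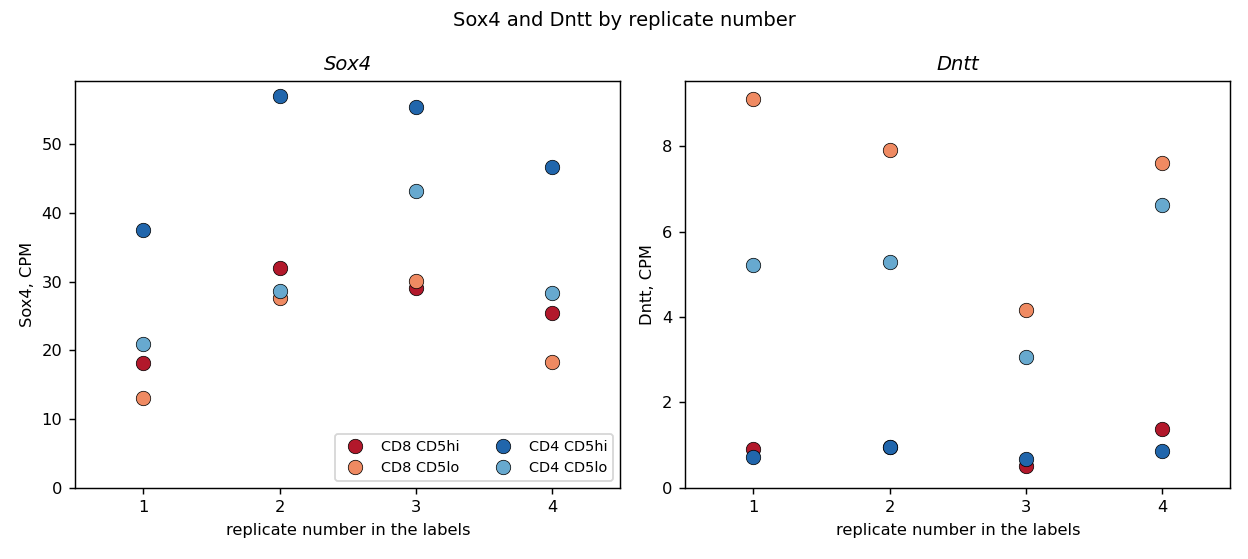
Sox4 and Dntt in CPM on the vertical axes against the replicate number of the labels, with 1 point per library and colours for the 4 groups. Replicate 1 was the lowest Sox4 library and replicate 3 the lowest Dntt library of every group.

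The Dntt gene lies on chromosome 19 at 41029275 to 41059525 on the plus strand (GRCm38, GENCODE annotation). Rag1 and Rag2 neighbour each other on chromosome 2, at 101638282 to 101649501 on the minus strand and 101624718 to 101632529 on the plus strand, with 5752 bases between them. The 250 bases before each RefSeq start are printed for Dntt, as the member with the largest change, and for the Rag pair, as its partners in recombination that were near 0 (RefSeq, GRCm38.p6). They are chr19:41029025-41029274, chr2:101649533-101649782 on the minus strand and chr2:101624462-101624711, each 5′ to 3′ on the gene's strand. Capitals mark GGGAA, the core of the site bound by Ikaros family proteins, and CAGGTG, an E box bound by E proteins, searched on both strands (as TTCCC and CACCTG on the other).
Dntt: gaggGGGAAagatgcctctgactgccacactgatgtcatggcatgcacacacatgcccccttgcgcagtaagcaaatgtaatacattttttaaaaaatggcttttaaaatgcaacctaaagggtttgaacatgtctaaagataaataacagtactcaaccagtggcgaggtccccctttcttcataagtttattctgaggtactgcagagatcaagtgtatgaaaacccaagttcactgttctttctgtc
Rag1: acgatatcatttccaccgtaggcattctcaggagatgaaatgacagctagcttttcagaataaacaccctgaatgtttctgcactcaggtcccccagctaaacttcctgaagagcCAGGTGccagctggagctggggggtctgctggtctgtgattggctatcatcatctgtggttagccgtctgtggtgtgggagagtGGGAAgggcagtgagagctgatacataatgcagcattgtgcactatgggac
Rag2: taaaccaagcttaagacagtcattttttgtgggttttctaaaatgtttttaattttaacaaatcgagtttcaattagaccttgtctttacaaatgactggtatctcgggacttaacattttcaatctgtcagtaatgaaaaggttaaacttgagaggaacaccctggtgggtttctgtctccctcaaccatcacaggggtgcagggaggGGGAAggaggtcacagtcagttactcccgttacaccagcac
Each of the 3 windows held 1 match to GGGAA, and the Rag1 window also held 1 to CAGGTG. These are short motifs: 56.2% of 32851 promoter windows of the same length held GGGAA and 17.2% held CAGGTG. The Sox4 window held 2 matches to GGGAA and none to CAGGTG. Of 9 windows listed for Arpp21, 1 held GGGAA and 4 held CAGGTG.

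The recombinase genes themselves were near or at 0. Rag1 had 0, 2, 0 and 4 counts in CD8 CD5hi and 0, 0, 6 and 2 counts in CD8 CD5lo libraries. It had 0, 0, 0 and 2 counts in CD4 CD5hi and 0, 4, 8 and 0 counts in CD4 CD5lo libraries. Counts appeared in 7 of 16 libraries and summed to 28, and the highest library of CD8 CD5hi, CD8 CD5lo and CD4 CD5lo was the B-marker-rich one. Those 3 libraries held 18 counts, and 10 counts came from 4 of the other 13. The part of B cell RNA in these counts was not tested. Each of the 7 nonzero values was even, and 73.9% to 80.5% of all gene counts between 1 and 9 were even in these libraries, against 49.2% to 51.3% of counts with 4 or more digits. Rag2 had 0 counts in all 16 libraries. A count of 0 allows up to 3 counts, or 0.0321 to 0.0420 CPM in a single library and 0.00234 CPM over the 1279511600 counts of all libraries (counting error only). These bounds take each count as a separate event, and would be higher if low counts come in pairs. No difference between the groups was detectable for either gene at this depth.

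Arpp21 was low, and fell with high CD5 in CD8 cells. CD8 CD5hi libraries had 0.134, 0.443, 0.485 and 0.356 CPM, against 1.57, 1.57, 1.28 and 0.947 CPM in CD8 CD5lo libraries. The groups did not overlap. The log2 change was -1.91 ± 0.34 (95% confidence interval -2.64 to -1.18, edgeR adjusted p = 0.00225), a 3.76-fold lower level in CD8 CD5hi. In CD4 CD5hi libraries Arpp21 was at 0.962, 1.16, 1.52 and 0.767 CPM, against 1.38, 1.55, 1.18 and 0.856 CPM in CD4 CD5lo libraries. Those values interleave, and the log2 change was -0.17 ± 0.33 (95% confidence interval -0.86 to 0.52, edgeR adjusted p = 0.971).

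The Arpp21 effects in the lineages differed by -1.74 ± 0.47, CD8 minus CD4 (95% confidence interval -2.73 to -0.74). Over all genes this missed the threshold in edgeR (adjusted p = 0.160). It passed in DESeq2 (-1.73, adjusted p = 0.0179) and in edgeR with the replicate number as a block (-1.74 ± 0.40, adjusted p = 0.0319), and adjusted p ran from 0.0179 to 0.341 over all alternatives. In order of level, CD8 CD5lo, CD4 CD5lo and CD4 CD5hi averaged 1.34 ± 0.297, 1.24 ± 0.298 and 1.10 ± 0.320 CPM and CD8 CD5hi 0.354 ± 0.156 CPM (SD, n = 4 each). The first 3 differed by less than their spread. Arpp21 has 31 annotated transcripts over 17428 exonic bases on chromosome 9 (112065091 to 112235938, minus strand), and 580 of these bases lie opposite the lincRNA gene 2900079G21Rik.

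Tox moved the other way. It was at 63.9, 64.4, 61.2 and 63.9 CPM in CD8 CD5hi libraries, against 42.0, 51.2, 54.0 and 51.3 CPM in CD8 CD5lo libraries. All CD5hi values were higher, although the 2 groups lay close. The change was 0.35 ± 0.08 on the log2 scale (edgeR adjusted p = 0.00943), 1.28-fold. In CD4 CD5hi libraries Tox reached 86.9, 78.0, 83.6 and 84.4 CPM, against 53.0, 51.4, 61.0 and 58.2 CPM in CD4 CD5lo libraries. Here the gap was wider, with a change of 0.57 ± 0.08 (edgeR adjusted p = 0.000252), 1.49-fold. Tox lies on chromosome 4 at 6686353 to 6991557 on the minus strand, and 260 of its exonic bases lie opposite the antisense gene Gm11802. The difference between the lineages was -0.22 ± 0.11, CD8 minus CD4 (95% confidence interval -0.46 to 0.01, edgeR adjusted p = 0.704). In order of level Tox averaged 83.2 ± 3.77 CPM in CD4 CD5hi, 63.3 ± 1.45 CPM in CD8 CD5hi, 55.9 ± 4.48 CPM in CD4 CD5lo and 49.6 ± 5.22 CPM in CD8 CD5lo cells (SD, n = 4 each), of which the last pair overlapped.

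Sox4, the other high mobility group factor, was not called for CD5 in either lineage without the replicate block. With the block it was called in CD4 cells. CD4 CD5hi libraries had 37.5, 57.0, 55.4 and 46.6 CPM, against 21.0, 28.6, 43.1 and 28.3 CPM in CD4 CD5lo libraries. Each CD5hi replicate was above the CD5lo replicate of the same number, but 1 CD5lo library lay inside the CD5hi range. The change was 0.70 ± 0.26 (95% confidence interval 0.15 to 1.25, edgeR adjusted p = 0.209). With the replicate number as a block it was 0.72 ± 0.11 and was called (adjusted p = 0.000519), with a range of 0.000519 to 0.457 over all alternatives. Replicate 1 was the lowest Sox4 library and replicates 2 and 3 were the top 2 in 4 of 4 groups. In CD8 cells Sox4 was at 18.2, 31.9, 29.1 and 25.4 CPM in CD5hi libraries, against 13.01, 27.6, 30.0 and 18.4 CPM in CD5lo libraries. These overlap (0.23 ± 0.26, edgeR adjusted p = 0.657). The effects differed by -0.47 ± 0.36, CD8 minus CD4 (edgeR adjusted p = 0.923). In order, Sox4 averaged 49.1 ± 8.98 CPM in CD4 CD5hi, 30.3 ± 9.29 CPM in CD4 CD5lo, 26.2 ± 5.93 CPM in CD8 CD5hi and 22.3 ± 7.96 CPM in CD8 CD5lo cells (SD, n = 4 each), and each group overlapped its neighbour in this order. The single exon of Sox4 (chromosome 13, 28948919 to 28953713, minus strand) shares 2616 bases, 54.6% of its length, with the antisense lincRNA Gm26735. The labels name a kit that keeps strand and one that does not, and the sources used here do not give the strand setting of the counting, so reads of the 2 genes cannot be told apart.

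Cd24a varied more within groups than between CD5 levels. CD8 CD5hi libraries had 7.36, 8.17, 11.8 and 13.9 CPM, against 4.89, 6.68, 14.6 and 3.70 CPM in CD8 CD5lo libraries. The highest library of the 8 was a CD5lo one, and the change was 0.47 ± 0.44 (95% confidence interval -0.47 to 1.402, edgeR adjusted p = 0.591). CD4 CD5hi libraries had 3.03, 5.86, 7.25 and 4.05 CPM, against 2.79, 5.95, 9.37 and 2.94 CPM in CD4 CD5lo libraries. These ranges overlap throughout (-0.06 ± 0.44, 95% confidence interval -1.001 to 0.88, edgeR adjusted p = 0.995). The effects differed by 0.53 ± 0.62, CD8 minus CD4 (edgeR adjusted p = 0.9749). Cd24a averaged 10.3 ± 3.08 CPM in CD8 CD5hi, 7.47 ± 4.92 CPM in CD8 CD5lo, 5.26 ± 3.10 CPM in CD4 CD5lo and 5.05 ± 1.88 CPM in CD4 CD5hi cells (SD, n = 4 each), again with overlap between neighbours.

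CD24 is also a product of B cells, and the 3 B-marker-rich libraries were the highest for Cd24a in their groups, with 13.9, 14.6 and 9.37 CPM. Cd24a went with replicate number too. Replicate 3 was in the top 2 in 4 of 4 groups and highest in 3, and replicate 1 was lowest in 3. CD8 CD5hi replicate 3 had 11.8 CPM of Cd24a at a B cell marker sum of 35.1 CPM, the lowest sum of its group. CD4 CD5hi replicate 3 had 7.25 CPM at a sum of 40.2 CPM, both the highest of that group. Over the 16 libraries the log2 level of Cd24a had a Pearson r of 0.74 with the log2 sum of the B cell markers, against 0.19 for Dntt, -0.06 for Arpp21, -0.09 for Sox4 and -0.29 for Tox. These points share the groups and, among the members, the libraries. Without the B-marker-rich libraries the Cd24a change was 0.86 ± 0.35 in CD8 (edgeR adjusted p = 0.142) and 0.38 ± 0.33 in CD4 cells (adjusted p = 0.820), where its sign turned. Adjusted p ran from 0.0917 to 0.843 in CD8 and from 0.820 to 1 in CD4 cells over all alternatives. The parts of B cell RNA and of replicate number in the Cd24a values were not tested. Cd24a (chromosome 10, 43578284 to 43584265, plus strand) also has annotated copies, Gm15352 and Gm6212, that match 259 of its bases at 92.3% and 218 at 96.8% identity, so its reads may be split.

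**Figure D3:**
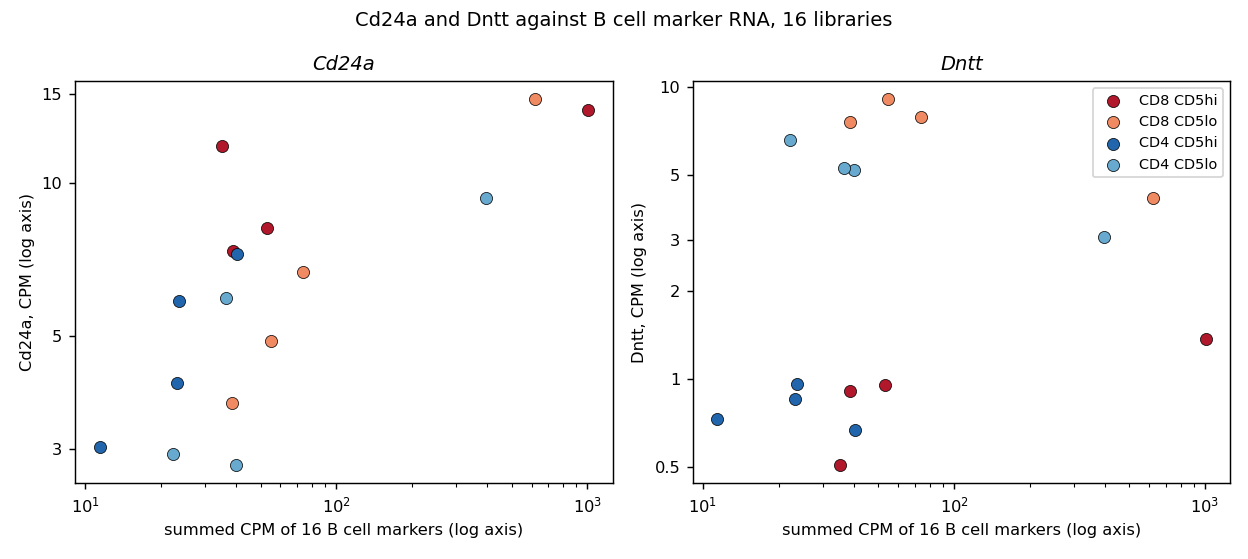
Cd24a (left) and Dntt (right) in CPM against the summed CPM of 16 B cell markers, log axes, 1 point per library and colours for the 4 groups. The 3 libraries with marker sums of 395 CPM and more held 9.37 to 14.6 CPM of Cd24a, whereas Dntt separated by CD5 at low marker sums.

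Of the 5 tested members, 1 fell (Dntt) and 1 rose (Tox) with high CD5 in CD4 cells, where 4.08% of tested genes were called (2.68% higher and 1.4% lower). In CD8 cells 2 fell (Dntt and Arpp21) and 1 rose (Tox), where 9.46% were called (5.95% higher and 3.51% lower). The groups did not overlap for 2 of the 5 in CD4 cells and for 3 in CD8 cells, against 9.29% and 14.8% of all tested genes. The members were chosen with earlier results of these data known. These counts, and those between lineages below, therefore describe the members and are not a test of them. Without the replicate block, no member was called in edgeR for a difference of the CD5 effect between lineages, where 0.31% of tested genes were (0.177% higher and 0.133% lower). Arpp21 alone passed there at an unadjusted p under 0.05, DESeq2 and edgeR with the block called it, and limma voom called none. With the block Sox4 was called higher in CD4 CD5hi cells as well, so that 2 members rose and 1 fell there. The edgeR counts without the block were the same when the B-marker-rich libraries were left out. The tested members did not all move the same way: Dntt and Tox had a Pearson r of -0.84 over the 16 libraries and of -0.40 within groups. Sox4 and Cd24a had one of 0.13 over the 16 libraries and of 0.75 within groups.

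**Figure D4:**
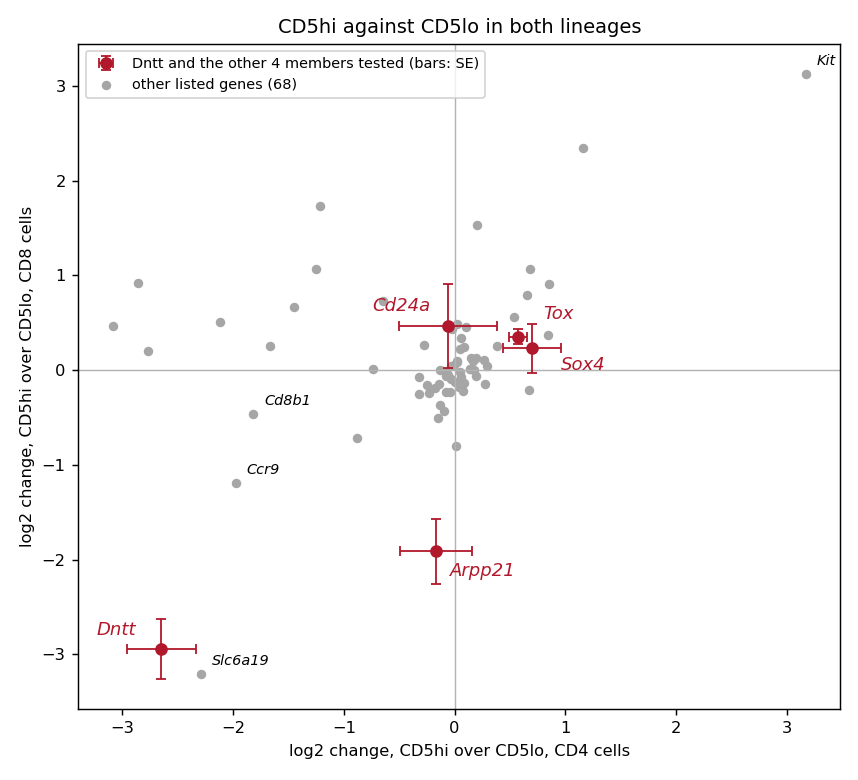
Log2 change of CD5hi over CD5lo in CD4 cells (horizontal) and CD8 cells (vertical) for the 5 tested members, in red with SE bars, and for 68 other listed genes, in grey. Dntt sits at -2.65 and -2.94, Arpp21 near 0 on the CD4 axis and at -1.91 on the CD8 axis, and Tox above 0 on both.

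The lineages were also compared at each CD5 level. Among CD5hi cells, CD8 cells had less Arpp21 (-1.63 ± 0.34, edgeR adjusted p = 0.00174), less Sox4 (-0.91 ± 0.26, adjusted p = 0.0138) and less Tox (-0.39 ± 0.08, adjusted p = 0.00118) than CD4 cells. This made 3 of 5 tested members lower, where 30.3% of tested genes were called in either direction (15.6% higher and 14.8% lower). The CD8 and CD4 groups did not overlap for 4 of the 5, the fourth being Cd24a, against 28.9% of all tested genes. Cd24a was at 7.36 to 13.9 CPM in CD8 CD5hi and 3.03 to 7.25 CPM in CD4 CD5hi libraries (1.03 ± 0.44, edgeR adjusted p = 0.0939). Its difference was called with the replicate number as a block (1.13 ± 0.27, adjusted p = 0.00343, with a range of 0.00343 to 0.203 over all alternatives). The CD8 CD5hi group includes the library with the highest B cell marker sum, and without the B-marker-rich libraries the difference was 0.87 ± 0.32.

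Among CD5lo cells no member was called in edgeR without the replicate block, where 19.5% of tested genes were (10% higher and 9.44% lower). Tox alone had an unadjusted p under 0.05 (-0.17 ± 0.08, edgeR adjusted p = 0.159), and neither DESeq2 nor limma voom called any member. The CD8 and CD4 groups overlapped for each of the 5, against non-overlap in 22.3% of all tested genes. With the replicate number as a block, edgeR called 1 member higher and 1 lower in CD8 CD5lo than in CD4 CD5lo cells. Dntt was higher (adjusted p = 0.0174). Sox4 was lower (-0.47 ± 0.11, adjusted p = 0.00429, with a range of 0.00429 to 0.664 over all alternatives). Without the block it was -0.44 ± 0.26 (edgeR adjusted p = 0.290). Arpp21 and Cd24a differed by 0.11 ± 0.32 and 0.50 ± 0.44 (adjusted p = 0.883 and 0.527).

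Per kilobase of exon, Tox and Sox4 were the most abundant members and Rag1 the least of those detected. Tox averaged 8.33, 6.52, 10.9 and 7.35 CPM per kilobase in CD8 CD5hi, CD8 CD5lo, CD4 CD5hi and CD4 CD5lo cells. Dntt averaged 0.408, 3.14, 0.351 and 2.20 CPM per kilobase in the same order. Cd24a averaged 4.00, 2.90, 1.96 and 2.04 CPM per kilobase, so Dntt lay well below it in both CD5hi groups and close to it in both CD5lo groups. Arpp21 stayed between 0.0203 and 0.0770 CPM per kilobase over its many exons.

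Other genes of thymocytes were counted from a list of 20, of which 19 were tested. In CD8 CD5hi cells 4 fell and 1 rose, where 3.51% of all tested genes were called lower and 5.95% higher. The 4 include Slc6a19, put on the list with its fall already known. In CD4 CD5hi cells 2 fell and 2 rose, where 1.4% of all tested genes were called lower and 2.68% higher. The list's median changes were -0.13 and -0.07, beside -0.00 and -0.01 over all tested genes. Ccr9, the chemokine receptor that draws thymocytes and gut-homing cells to CCL25, fell in both lineages. It averaged 195 ± 23.1 CPM in CD8 CD5hi and 445 ± 50.9 CPM in CD8 CD5lo cells (-1.19 ± 0.18, edgeR adjusted p = 0.000691). In CD4 cells it was 9.26 ± 2.29 CPM in CD5hi and 36.4 ± 9.38 CPM in CD5lo (-1.98 ± 0.19, adjusted p = 9.55e-06; SD, n = 4 each).

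Cd8b1, the beta chain of the CD8 coreceptor that double-positive thymocytes also carry, fell in both lineages too. In CD4 cells it averaged 7.996 ± 0.457 CPM in CD5hi and 28.2 ± 2.20 CPM in CD5lo (-1.82 ± 0.08, edgeR adjusted p = 4.76e-10). In CD8 cells it averaged 962 ± 59.4 CPM in CD5hi and 1329 ± 107 CPM in CD5lo (-0.47 ± 0.07, adjusted p = 0.000874; SD, n = 4 each). Its fall was larger in CD4 cells by 1.35 ± 0.11 (adjusted p = 1.60e-05). Cd8a, the alpha chain and a marker of CD8 T cells, fell in CD4 cells too, with 0.692, 1.15, 1.65 and 2.07 CPM in CD5hi and 2.79, 2.02, 11.4 and 5.49 CPM in CD5lo libraries (-1.97 ± 0.42, edgeR adjusted p = 0.0122). The part of CD8 T cells in the CD4 CD5lo values of Cd8b1 was not tested. Slc6a19, a neutral amino acid transporter put on the list with its fall already known, averaged 3.96 ± 1.37 CPM in CD8 CD5hi and 36.4 ± 7.87 CPM in CD8 CD5lo cells (-3.20 ± 0.33, adjusted p = 2.66e-05). Bcl11b, a factor that holds the T cell fate, fell by 0.51 ± 0.11 in CD8 CD5hi cells (adjusted p = 0.00786). Id3 rose in CD8 cells (0.79 ± 0.23, adjusted p = 0.0382), and Myb and Gfi1 rose in CD4 cells (Gfi1 by 0.67 ± 0.17, adjusted p = 0.0303). Ptcra, the pre-T cell receptor alpha chain of earlier thymocytes, had at most 0.0557 CPM in any library.

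Genes of the earliest thymocyte stages were a list of 15, with 13 tested. In CD8 CD5hi cells 1 rose and 1 fell, where 9.46% of all tested genes were called, and in CD4 CD5hi cells 1 rose, where 4.08% were. The list's median changes were 0.25 in CD8 and -0.65 in CD4 cells, or -0.34 and 0.11 without the B-marker-rich libraries. Kit, the stem cell factor receptor that innate lymphoid cells carry as well, rose in both lineages at low levels. It averaged 2.03 CPM in CD8 CD5hi and 0.234 CPM in CD8 CD5lo cells (3.12 ± 0.45, edgeR adjusted p = 0.000414), and 0.426 CPM in CD4 CD5hi and 0.0462 CPM in CD4 CD5lo cells (3.17 ± 0.53, adjusted p = 0.00150). Summed levels of 8 natural killer and innate markers, Kit among them, were 120 to 196 CPM in CD8 CD5hi and 103 to 123 CPM in CD8 CD5lo libraries, and 92.8 to 150 CPM in CD4 CD5hi and 62.4 to 80.0 CPM in CD4 CD5lo libraries. Most of these sums was Id2, which averaged 135 CPM in CD8 CD5hi, 100.2 CPM in CD8 CD5lo, 116 CPM in CD4 CD5hi and 70.8 CPM in CD4 CD5lo cells. The members of the list went in both directions. In CD8 CD5hi cells Kit and Klrb1c (1.86 ± 0.40, edgeR adjusted p = 0.00766) rose and none fell. In CD4 CD5hi cells Kit and Id2 (0.71 ± 0.17, adjusted p = 0.0210) rose, and Gzma, a granzyme of cytotoxic cells, fell (-3.03 ± 0.43, adjusted p = 0.000361). Klrk1, a receptor of natural killer and CD8 T cells, had values of -0.21 in CD8 and -0.92 in CD4 cells and was called in neither. The part of innate cells in the Kit values was not tested. Runx1, a core factor of lymphoid development, fell by 0.43 ± 0.10 in CD8 CD5hi cells (adjusted p = 0.0120). That call was lost without CD8 CD5lo replicate 2, where the adjusted p was 0.0537.

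End-joining genes complete recombination after RAG and the transferase have acted. Of 13 listed, 12 were tested, and none fell with high CD5. None was called in CD4 cells by edgeR, at an unadjusted p under 0.05, by DESeq2 or by limma voom (median 0.02). In CD8 CD5hi cells 2 rose and none fell (median 0.03). Of all tested genes, edgeR called 4.08% in CD4 and 9.46% in CD8 cells. Hmgb2, a DNA-bending cofactor of RAG that also rises in dividing cells, was higher by 0.48 ± 0.12 (edgeR adjusted p = 0.0137), and Xrcc5, which encodes Ku80, by 0.34 ± 0.08 (adjusted p = 0.0185). Hmgb2 lost its call without CD8 CD5hi replicate 2 (adjusted p = 0.0552) and in a fit to the CD8 libraries alone (adjusted p = 0.0671), the highest of its alternatives. Xrcc5 lost its call without CD8 CD5hi replicate 1 or 2 (adjusted p = 0.0539 and 0.0704). Beside these, 12 of 12 cell cycle genes rose in CD8 CD5hi cells, with a median of 1.74 and summed levels of 342 to 704 CPM in CD8 CD5hi and 221 to 268 CPM in CD8 CD5lo libraries. Their part in these 2 calls was not tested.

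Transcription factors known to act on the Rag locus were a list of 12, with 11 tested. In CD4 CD5hi cells 3 rose and none fell (median 0.09), where 4.08% of all tested genes were called. In CD8 CD5hi cells 1 rose and 1, Runx1, fell (median -0.02), where 9.46% were called. Ikzf3, which encodes Aiolos of the Ikaros family, rose in both, by 0.56 ± 0.12 in CD8 (edgeR adjusted p = 0.00524) and by 0.54 ± 0.12 in CD4 cells (adjusted p = 0.0122). With the replicate block 4 rose and 1 fell in CD4 cells. Myb rose by 0.85 ± 0.21 (adjusted p = 0.0273) and Ets1 by 0.27 ± 0.07 (adjusted p = 0.0356) in CD4 cells. The Myb call was lost without CD4 CD5hi replicate 1, 2 or 3 or CD4 CD5lo replicate 1, 2 or 4 (adjusted p 0.0516 to 0.0975). The Ets1 call was lost without CD4 CD5hi replicate 2, 3 or 4 or CD4 CD5lo replicate 1, 2 or 3 (adjusted p 0.0614 to 0.115), and in 4 other alternatives (up to 0.124).

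A list of 15 genes that change as emigrants mature, such as Il7r and Bcl2, gave no call in 12 tested members in either lineage by edgeR. At an unadjusted p under 0.05, 4 were higher and 1 lower in CD8 CD5hi cells, and 1 was higher and 2 were lower in CD4 CD5hi cells. DESeq2 called 1 higher in each lineage, and limma voom 2 higher and 1 lower in CD8 and none in CD4 cells. Without the B-marker-rich libraries edgeR called 2 higher in CD8 and 1 higher in CD4 cells, and with the replicate block it called 1 higher in CD4 cells. The list's median was 0.11 in both lineages. Without the block, edgeR called 9.46% of all tested genes in CD8 and 4.08% in CD4 cells. The near-identical Qa-2 genes H2-Q6, H2-Q7 and H2-Q9, whose product marks mature cells, were not tested because none had more than 1 count in a library.

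Among relatives of Sox4 and Tox, 10 genes were listed and 7 tested. In CD8 CD5hi cells 2 rose and in CD4 CD5hi cells 1 rose, and none fell (medians 0.45 and 0.10). The shares called among all tested genes were 9.46% in CD8 and 4.08% in CD4 cells. With the replicate block 2 rose and 1 fell in CD4 cells. Sox12, a close relative of Sox4, rose by 0.91 ± 0.21 in CD8 (edgeR adjusted p = 0.00983) and by 0.85 ± 0.21 in CD4 cells (adjusted p = 0.0287). The CD4 call was lost without CD4 CD5hi replicate 3 or 4, without CD4 CD5lo replicate 1, 2 or 4 and in a fit to the CD4 libraries alone (adjusted p 0.0735 to 0.104). Sox5 averaged 1.52 CPM in CD8 CD5hi and 0.460 CPM in CD8 CD5lo cells (1.73 ± 0.40, adjusted p = 0.0120). Its call was lost without CD8 CD5hi replicate 2, where the adjusted p was 0.0511. The Sox5 effects differed by 2.95 ± 0.57, CD8 minus CD4 (adjusted p = 0.0423). That call was lost without any single library other than CD8 CD5hi replicate 4, CD8 CD5lo replicate 3 and CD4 CD5lo replicate 4 (adjusted p 0.0608 to 0.0998).

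By pattern over the 16 libraries, the genes most like Dntt were Slc16a5, a monocarboxylate transporter family gene (Pearson r 0.97), Eya2, a transcriptional coactivator (0.93), and Grm6, a glutamate receptor (0.93). Within groups their r with Dntt was 0.75, 0.35 and 0.58. Each of the 3 was lower in CD5hi in both lineages, which follows from picking them by likeness to Dntt. Slc16a5 fell by 1.72 in CD8 and by 1.84 in CD4 cells. For Tox the nearest were Cyth3 (0.95), Heca (0.95) and Cd5 itself (0.95), with 0.72, 0.56 and 0.31 within groups. For Sox4 they were Foxn3 (0.97), Fbxl17 (0.95) and Ikzf1 (0.94), and none of these 3 was called for CD5. For Arpp21 they were Irf9 (0.90), Map3k12 (0.87) and Brf1 (0.86), and for Cd24a Rasgef1b (0.96), Gem (0.92) and Kctd12 (0.88). The genes named for Sox4, Arpp21 and Cd24a had r of 0.51 to 0.94 within groups. These were the highest r among 10359 genes and describe the libraries only.

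Markers of other cells that can carry Dntt or Rag genes were counted as well. The early B cell list, without the members, summed to 0.407 to 3.62 CPM per library. Its defining surrogate light chain genes were low, with Vpreb1 at most 0.647 CPM and Igll1 at most 0.0279 CPM. In CD5hi libraries, where Dntt was at most 1.37 CPM, these sums were 0.611 to 3.62 CPM in CD8 and 0.437 to 0.699 CPM in CD4 cells. The 3.62 CPM was the B-marker-rich library, and the other CD8 CD5hi libraries had 0.611 to 0.795 CPM. In CD5lo libraries, where Dntt reached 3.06 to 9.10 CPM, the sums were 0.555 to 2.24 CPM in CD8 and 0.407 to 1.42 CPM in CD4 cells. Both upper ends were B-marker-rich libraries, and the others had at most 0.711 CPM in CD8 CD5lo and 1.03 CPM in CD4 CD5lo. A list of 8 plasmacytoid dendritic cell markers summed to 226 to 294 CPM in CD8 CD5hi and 478 to 589 CPM in CD8 CD5lo libraries, and to 55.7 to 74.3 CPM in CD4 CD5hi and 78.9 to 123 CPM in CD4 CD5lo libraries. The sums were thus higher in CD5lo, where Dntt was high. Most of the CD8 sums was Ccr9, which averaged 195 CPM in CD8 CD5hi and 445 CPM in CD8 CD5lo cells. In CD4 cells Ccr9 averaged 9.26 CPM in CD5hi and 36.4 CPM in CD5lo. Ccr9, which is also on the thymocyte list above, was the member called lower in CD5hi in both lineages, and no other was called over all 16 libraries. Without the B-marker-rich libraries edgeR also called 1 marker of this list higher in CD8 CD5hi cells. The early B cell list likewise had 1 gene called higher there. Bst2 averaged 56.1 CPM in CD8 CD5hi, 58.9 CPM in CD8 CD5lo, 47.8 CPM in CD4 CD5hi and 53.1 CPM in CD4 CD5lo cells. Irf8 averaged 13.7 ± 8.24 CPM in CD8 CD5hi and 8.82 ± 6.00 CPM in CD8 CD5lo cells. It averaged 6.66 ± 0.569 CPM in CD4 CD5hi and 7.44 ± 3.87 CPM in CD4 CD5lo cells (SD, n = 4 each). Its highest library, in CD8 CD5hi, had 26.1 CPM. Siglech, the lectin that defines these cells, was at most 0.877 CPM. The part of plasmacytoid cells in the Dntt values was not tested. The 16 B cell markers had medians of 0.50 in CD8 and -2.58 in CD4 cells for CD5hi over CD5lo, with none called by edgeR, DESeq2 or limma voom and, at an unadjusted p under 0.05, none in CD8 and 1 lower in CD4 cells. Without the B-marker-rich libraries the medians were -0.76 in CD8, where the sign turned, and -0.62 in CD4 cells, again with none called by edgeR.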

How the data were processed

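RNA of sorted naive T cells was sequenced in 16 libraries. Per the labels' protocols, libraries were made with a kit that keeps strand or one that does not, and the sources used here do not say which library used which. The submitters' processing notes name STAR 2.5.2a, featureCounts 1.4.6-p3, DESeq2 and build mm10. The deposited table holds raw read counts per gene for each library, not normalized by the authors. The totals of 71447252 to 93418385 counts set the precision. Genes were kept by edgeR's filterByExpr (minimum count 10, minimum total 15), scaled by TMM and fitted with 1 term per group over all 16 libraries (edgeR 4.0.16, limma 3.58.1, DESeq2 1.42.0, R 4.3.3), which leaves 12 residual degrees of freedom. The quasi-likelihood test is two-sided with a threshold of 0.05 after Benjamini-Hochberg adjustment over all tested genes. The fit was also run on simulated counts, drawn without replicate pairing or an excess of even values. Its outcome is not reported here, and no result rests on it. CPM values use TMM-scaled library sizes, and correlations use log2 CPM with a prior count of 2.

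The members, gene lists and tests were chosen with earlier results of these data known. Named beside the members were up to 4 called genes of each list with the smallest adjusted p in the CD5 comparisons, and the 3 genes most correlated with each tested member among genes of at least 1 CPM on average. Genes outside this rule (Gfi1, Id3, Ptcra and others) were chosen after their values were seen. Duplicate libraries were not found: the smallest chi-square per degree of freedom between libraries of a group was 30.1. Alternatives were other scaling, other filters, halved counts, DESeq2, limma voom, a replicate block, fits to 1 lineage, and fits without the B-marker-rich or any single library. Replicate numbers come from the sample titles. Deviations of same-numbered libraries correlated above 0.1 in 4 of 4 pairs for CD4 CD5hi with CD4 CD5lo (0.25 to 0.53). The same held for CD8 with CD4 CD5lo (0.20 to 0.70) and for CD8 with CD4 CD5hi (0.23 to 0.54). Numbers were taken as pairing in each of these comparisons. The main fit has no replicate term, so its p-values and intervals leave this pairing out. The fit with a replicate block uses it, and is given where a member's call changed. For CD8 CD5hi with CD8 CD5lo it held in 2 of 4 pairs (-0.04 to 0.56), and numbers were not taken as pairing. The pairs under 0.1 were replicates 3 (0.03) and 4 (-0.04), each with a B-marker-rich library. Those libraries, CD8 CD5lo replicate 3 and CD8 CD5hi replicate 4, correlated at 0.43 with each other. The pairings taken elsewhere would imply the same for CD8 CD5hi with CD8 CD5lo, so its pairing is unsettled.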

Additional observations from a re-analysis of the deposited data

Results flagged for a closer look

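Rag1 in CD4 CD5hi cells stood apart in 1 library: replicate 4 had 0.0251 CPM (2 counts), while the other 3 libraries of the group had 0. It was the 1 value past Dixon's 95% critical value among 24 groups screened. A group with a single value other than 0 passes by construction (gap ratio 1), so the usual chance rate of about 1 in 20 groups does not apply. The 0.0251 CPM lies under the level that a count of 0 allows.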

How the results depend on the processing

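Of the alternatives for the members' log2 changes, 568 kept their direction and side of the threshold, 6 passed it newly, 11 changed sign and 0 lost a call. The 6 are the blocked and DESeq2 values given above for Sox4, Arpp21, Dntt and Cd24a. None of the changes that turned sign was called. Cd24a in CD4 cells (-0.06) became 0.055 by limma voom, 0.019 with the replicate block, 0.38 without the B-marker-rich libraries, and 0.12, 0.03, 0.01 and 0.38 without CD4 CD5hi replicate 1, CD4 CD5hi replicate 4, CD4 CD5lo replicate 2 and CD4 CD5lo replicate 3 (-0.29 to 0.38 without single libraries). For CD8 against CD4, Cd24a in CD5lo cells became -0.047 without CD8 CD5lo replicate 3 (up to 0.94 without others), Arpp21 in CD5lo cells -0.027 without CD4 CD5lo replicate 4 (up to 0.25), and Dntt in CD5hi cells -0.0088 without the B-marker-rich libraries and -0.026 without CD8 CD5hi replicate 4 (up to 0.44). The cause was not tested.

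Counts of called genes moved more. The replicate block gave 1312 for CD5 in CD4 cells (771 higher and 541 lower, against 553 without it), 3390 in CD8 cells (1813 and 1577, against 1282), 4345 between lineages in CD5lo cells (against 2638), 6336 in CD5hi cells (against 4111) and 379 for the difference of the CD5 effect (against 42). It newly called 2 members between lineages in CD5lo cells, Cd24a between lineages in CD5hi cells, Sox4 for CD5 in CD4 cells and 1 member for the difference, where DESeq2 also called 1. In CD8 cells, where the numbers were not taken as pairing, it called 4 higher and 6 lower of the thymocyte list, 4 higher and 2 lower of the emigrant list and 3 higher and 3 lower of the Rag locus factors. The difference had 215 genes by DESeq2, 129 without the B-marker-rich libraries and 8 (without CD8 CD5lo replicate 2) to 165 (without CD8 CD5hi replicate 4) without single libraries. CD5 in CD8 cells had 813 genes in a fit to its 8 libraries (565 and 248) and 763 to 1647 without single libraries, the fewest without CD8 CD5hi replicate 2 and, at 811, CD8 CD5lo replicate 4. Without single libraries CD5 in CD4 cells had 382 to 635, and lineage 2112 to 2935 in CD5lo and 3467 to 4201 in CD5hi cells. Apart from those, the block changed no member's call. Depth limits Rag1, Rag2 and, at 10 to 134 counts a library, Arpp21.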
